A study of Mus musculus with 5 samples.

Results

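The 46 genes described here encode the machinery that copies DNA in S phase, and the rule that chose them names genes by their role in replication and uses no measured value, although earlier results of these data were known when it was written. All 46 were among the 19938 genes measured by a probe set with a single gene symbol. They fall into 10 roles, from the loading of the helicase at origins to the copying of chromatin. Each gene is represented by its brightest probe set over the 5 grafts.

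Gene expression was measured on Affymetrix Mouse Gene 1.0 ST arrays in whole heart grafts of C57BL/6 mice, each implanted in the abdomen of a syngeneic C57BL/6 recipient. In the I/R group (ischemia reperfusion, grafts 2553, 2555 and 2557) the donor heart was kept in University of Wisconsin solution for 18 h at 4°C before implantation. In the non-I/R group (grafts 2554 and 2556) the heart was implanted at once, so that these controls carry the surgery, a reperfusion and the transplantation itself. The source, tissue and description labels of these grafts say that they had no cold storage, while their treatment label repeats the storage step. The labels give a harvest 24 h after transplantation, while the study's text gives a later day for the arrays. Values are log2 signals made with RMA, a method that corrects background and brings arrays to a common distribution, and a difference of 1 on this scale is 2-fold. Array medians lay between 6.58 and 6.65. Nothing in the labels says more about the animals behind the 5 arrays, and every p-value here rests on the spread of these grafts alone. Cardiomyocyte markers had mean signals of 12.28 to 13.18 in the 5 grafts, so the labelled tissue carried its defining markers.

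DNA replication begins with licensing. The origin recognition complex, Cdc6 and Cdt1 load the ring of Mcm2 to Mcm7 onto DNA in G1, and geminin holds Cdt1 back afterwards. In S phase, Cdc45 and the GINS complex turn the ring into a moving helicase, primase and the polymerases make new strands, and PCNA clamps the polymerases to the template. Adult cardiomyocytes rarely enter the cell cycle, whereas fibroblasts, endothelial cells and leukocytes in an injured heart can do so. Many replication genes are targets of E2F factors, which become active when a cell commits to S phase, and many mitosis genes are controlled later through the CHR element.

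The promoters of the members often held E2F letters. The letters of an E2F motif (TTTCGCGC, TTTGGCGC, TTTCCCGC or TTTGCCGC, on either strand) were searched in RefSeq windows from 250 bases before to 50 bases after each start site (build GRCm38.p6). Of the 46 members, 37 had a window, and 14 of these (37.8%) held the letters, against 2.60% of 27025 genes with a window. The letters were about as common in other replication factors (34.4% of 32) and in genes that control the step from G1 to S (38.1% of 21). The letters lay upstream of the start site in 10 members, and 30 bases around them are printed here to show where the letters stood. Dtl, Mcm5 and Mcm6 are among these 10, whereas the windows of Mcm2, Prim1 and Tyms, which also had large differences, held none of the letters. Capitals mark the motif letters, each window is read 5′ to 3′ along the gene, and Mcm6 has a pair of windows.
Orc1 (chr4:108579416-108579445, + strand): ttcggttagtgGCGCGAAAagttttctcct
Cdc6 (chr11:98908002-98908031, + strand): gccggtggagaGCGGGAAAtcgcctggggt
Mcm5 (chr8:75109345-75109374, + strand): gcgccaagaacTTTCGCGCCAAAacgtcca
Mcm6 (chr1:128359797-128359826, - strand): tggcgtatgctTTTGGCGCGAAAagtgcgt
Mcm6 (chr1:128359734-128359763, - strand): gattggacgggTTTGGCGCgaagtagctca
Mcm7 (chr5:138172030-138172059, - strand): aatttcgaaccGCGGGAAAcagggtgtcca
Gins3 (chr8:95633507-95633536, + strand): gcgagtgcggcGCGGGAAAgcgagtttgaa
Pola1 (chrX:93632275-93632304, - strand): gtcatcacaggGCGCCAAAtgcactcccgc
Rfc3 (chr5:151651209-151651238, - strand): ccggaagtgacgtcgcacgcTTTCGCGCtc
Dtl (chr1:191575545-191575574, - strand): caatcagaaagcgtgacgtcagTTTGGCGC
Uhrf1 (chr17:56304117-56304146, + strand): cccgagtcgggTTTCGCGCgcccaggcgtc

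In Mcm5 and in the farther Mcm6 window, matches on the opposite strands overlap, so that 12 letters stand in capitals. The other members with the letters, Cdt1, Lig1, Mcm3 and Pold1, held them after the start site. The letters TTTGAA of the CHR element occurred in 4 of the 37 members (10.8%) and in 19 of 26 mitosis genes (73.1%), against 20.2% of all genes, whereas E2F letters occurred in 1 of those 26 mitosis genes (3.85%). The CCAAT letters of the NF-Y motif were in 62.2% of the members, in 73.1% of the mitosis genes and in 41.1% of all genes. A match is a description of letters and not of a site in use.

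**Figure D1:**
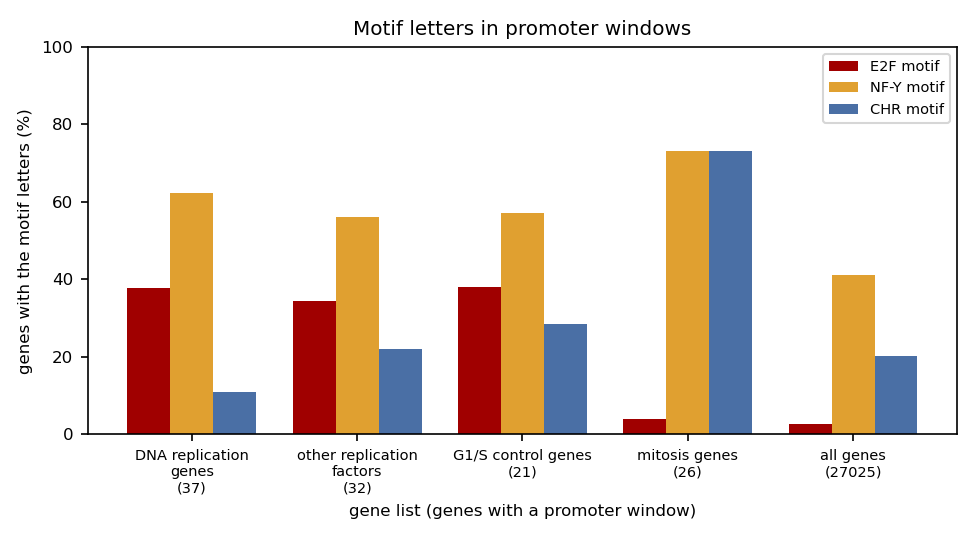
Share of genes (%, vertical axis) whose promoter window held the letters of the E2F, NF-Y or CHR motif, for 4 gene lists and for all genes with a window (numbers of genes in brackets). E2F letters stood in 37.8% of the DNA replication genes, 34.4% of other replication factors, 38.1% of G1/S control genes and 3.85% of the mitosis genes. CHR letters stood in 10.8% of the DNA replication genes and 73.1% of the mitosis genes.

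Replication genes had higher signals in the I/R grafts than in the non-I/R grafts across most roles, although no gene on the array passed the adjusted threshold. The mean was higher in I/R for 40 of the 46 members, against 45.6% of all probe sets. The mean was lower for 6 members (Gmnn, Gins4, Rpa1, Rpa3, Tk1 and Dut). The median log2 fold change was 0.32 over the members and -0.01 over all 21789 probe sets tested, with a range over the members from -0.53 for Gmnn to 1.08 for Dtl. In whole tissue, fewer cells of a type and less RNA per cell cannot be told apart, and the same holds for more cells and more RNA per cell.

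By limma at an unadjusted p under 0.05, the criterion of the study, 14 members were higher in I/R and none was lower, where 15.0% of all probe sets passed in either direction, 7.64% higher and 7.35% lower. The 14 were Orc1, Orc6, Cdt1, Mcm2, Mcm3, Mcm5, Mcm6, Pola2, Prim1, Pcna, Fen1, Tyms, Dtl and Uhrf1. Their adjusted p-values lay between 0.282 and 0.332, and 0 members passed at an adjusted p under 0.05, as did 0% of all probe sets. A change of at least 2-fold at that unadjusted p was found for Dtl, where 0.496% of all probe sets were so changed upwards. The count rested on each control: it was 3 without non-I/R graft 2554 (Cdt1, Fen1 and Rfc2), where 4.65% of all probe sets were higher, and 4 without 2556 (Cdt1, Mcm3, Orc6 and Tyms), where 8.32% were. Both are near the share over the array. Without I/R graft 2555 the count was 7, where 6.44% of all probe sets were higher. Cdt1 passed whichever graft was left out, and each of the other 13 missed the threshold without at least 1 graft.

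Groups that did not overlap were common among the members. Every I/R graft lay above both non-I/R grafts in 27 of 46 members (58.7%), against 15.8% of all probe sets. Gmnn was the 1 member with every I/R graft below both controls, against 16.2% of all probe sets. An exact permutation test of 3 against 2 grafts cannot give a two-sided p below 0.1, so it was not used for single genes.

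**Figure D2:**
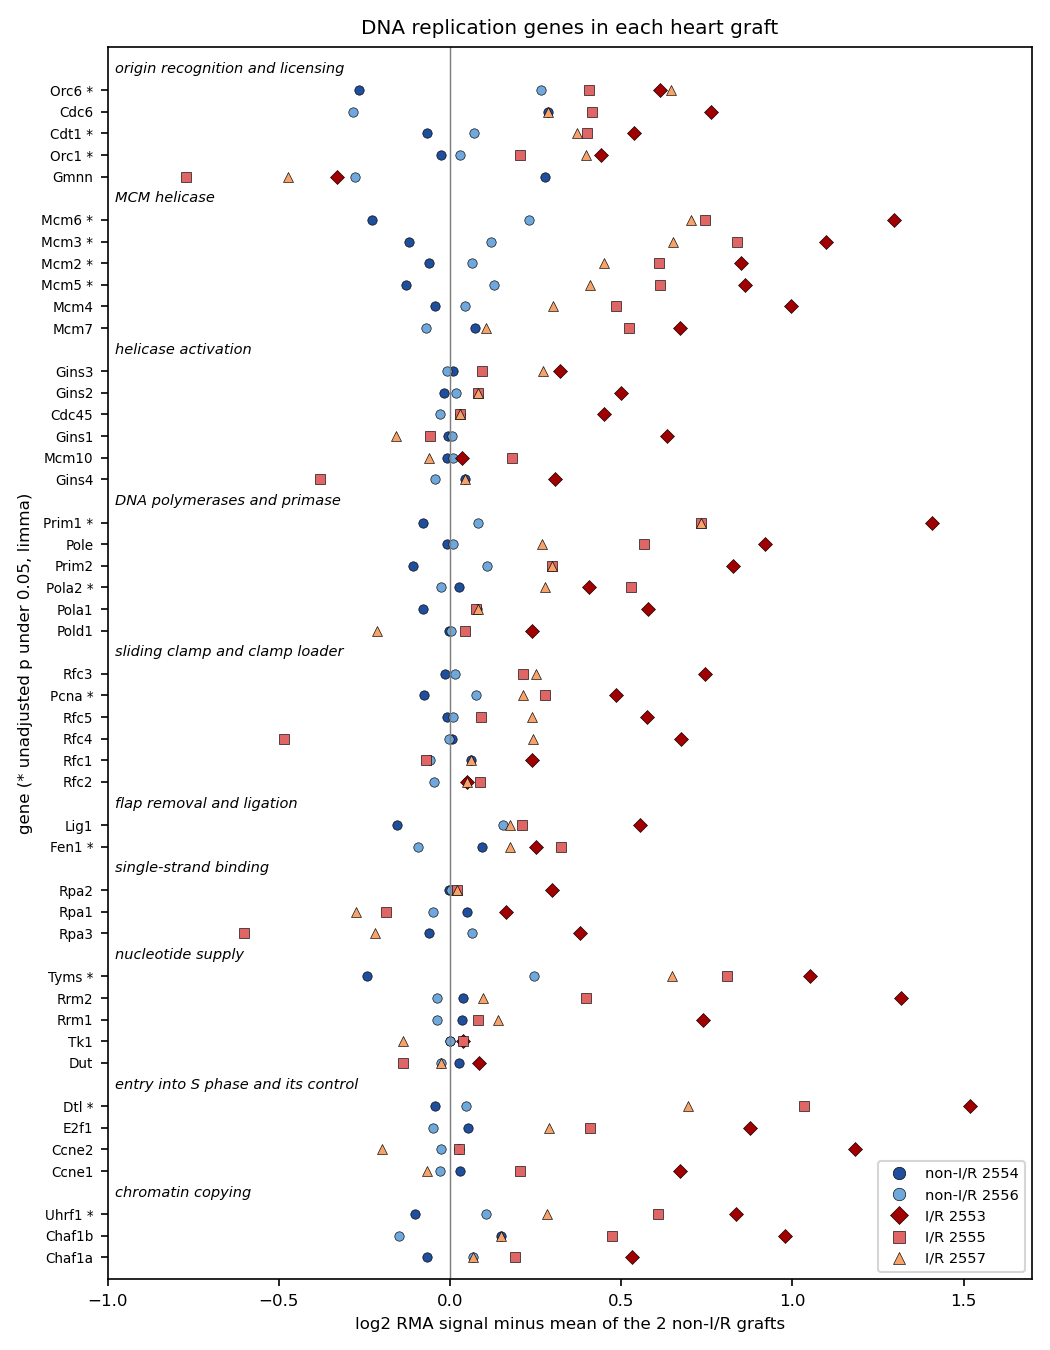
Log2 RMA signal of each of the 46 DNA replication genes in each of the 5 grafts, as the difference from the mean of the 2 non-I/R grafts (horizontal axis), grouped by role and ordered by fold change within a role. Circles are non-I/R grafts, other symbols I/R grafts, and the star marks an unadjusted p under 0.05. I/R graft 2553 (diamonds) was the highest of the 5 grafts in 40 genes, and all 6 MCM genes had every I/R graft above both non-I/R grafts.

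The licensing factors were higher in I/R with the exception of the inhibitor geminin. Orc1, the ATP-binding subunit that closes the origin recognition complex, had log2 signals of 5.35 and 5.41 in the non-I/R grafts 2554 and 2556 and of 5.82, 5.58 and 5.78 in the I/R grafts 2553, 2555 and 2557 (log2 fold change 0.35 ± 0.09, SE, adjusted p = 0.286). Orc6, the smallest subunit, had 7.60 and 8.13 against 8.48, 8.27 and 8.51 in the same order of grafts (0.55 ± 0.20, adjusted p = 0.332). The lower control 2554 set much of this difference, which was 0.29 without that graft. Cdt1, the loading factor for the MCM ring, had 7.21 and 7.35 against 7.82, 7.68 and 7.65 (0.44 ± 0.08, adjusted p = 0.282). Its 3 I/R values lay close together, and leaving out a graft moved its difference only between 0.37 and 0.51. Cdc6, the partner of Cdt1 in loading, was lower in control 2556 (5.79) than in control 2554 (6.36), and I/R graft 2557 equalled the latter, so that its groups met (0.49 ± 0.25, adjusted p = 0.445). Gmnn, which encodes geminin, went the other way with 5.68 and 5.13 in the controls and 5.07, 4.63 and 4.93 in I/R. Its difference of -0.53 ± 0.24 missed the unadjusted threshold (adjusted p = 0.411), was -0.80 without control 2556, where it passed, and -0.25 without control 2554, and had a 95% interval from -1.19 to 0.14.

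The MCM helicase genes were separate between the groups throughout. All 6 subunits had every I/R graft above both controls, with a median log2 fold change of 0.63, and graft 2553 was the highest in all 6. Mcm3 had 6.69 and 6.93 in the non-I/R grafts against 7.91, 7.65 and 7.46 in I/R (0.86 ± 0.17, adjusted p = 0.282). Mcm6, the subunit with the largest difference, had 7.497 and 7.955 against 9.02, 8.47 and 8.43 (0.92 ± 0.27, adjusted p = 0.297). In both genes the gap between the groups was wider than the spread of the controls.

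Mcm2 had 8.05 and 8.18 against 8.97, 8.72 and 8.57, a difference of 0.64 ± 0.14 with an adjusted p of 0.284. Mcm5 had 7.83 and 8.09 against 8.82, 8.57 and 8.37, or 0.63 ± 0.17 with an adjusted p of 0.292. These subunits form the ring together with Mcm4 and Mcm7, which did not pass the unadjusted threshold. Mcm4 had 7.75 and 7.84 against 8.79, 8.28 and 8.10 (0.59, 95% interval -0.09 to 1.27). Mcm7 had 8.09 and 7.94 against 8.69, 8.54 and 8.12, and its I/R graft 2557 was barely above control 2554 (0.43 ± 0.20, adjusted p = 0.419). Without graft 2553 the 6 differences still ran from 0.31 for Mcm7 to 0.75 for Mcm3.

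The factors that activate the loaded ring had smaller differences. None of Mcm10, Cdc45 and Gins1 to Gins4 passed the unadjusted threshold, and their median log2 fold change was 0.15. Gins3 came closest, with 6.54 and 6.52 in the controls and 6.85, 6.63 and 6.80 in I/R (0.23 ± 0.08, adjusted p = 0.335). Gins2 had 7.35 and 7.39 against 7.87, 7.45 and 7.45 (0.22 ± 0.16, adjusted p = 0.507). In Gins1, Gins2 and Cdc45 the difference lay in graft 2553: it stood 0.63, 0.50 and 0.45 above the control mean, while the mean of grafts 2555 and 2557 differed from it by -0.11, 0.08 and 0.03. Mcm10, a scaffold of the active helicase, had log2 signals of 6.34 to 6.58 in the 5 grafts (0.05, 95% interval -0.18 to 0.28). Gins4 had a difference of -0.01 (95% interval -0.66 to 0.64), with its highest value in 2553 and its lowest in 2555.

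All 6 polymerase and primase genes had higher means in I/R. Prim1, the catalytic subunit of primase, had 5.82 and 5.98 in the controls against 7.31, 6.63 and 6.63 in I/R (0.96 ± 0.26, adjusted p = 0.291), the second largest difference of all members. Its values in 2555 and 2557 were identical, as were those of Prim2, the other primase subunit, which had 7.51 and 7.73 against 8.44, 7.91 and 7.91 (0.47 ± 0.22, adjusted p = 0.414). Such ties between arrays occurred in 13 of 46 members (28.3%) and in 53.8% of all probe sets. Pola2, the accessory subunit of polymerase alpha, had 7.62 and 7.57 against 8.002, 8.12 and 7.87 (0.40 ± 0.09, adjusted p = 0.284). It was 1 of 4 members with the highest value in graft 2555, along with Fen1, Rfc2 and Mcm10. Pole, the leading-strand polymerase, had 6.16 and 6.18 against 7.09, 6.73 and 6.44 (0.58 ± 0.22, adjusted p = 0.344). The catalytic subunits of polymerases alpha and delta differed less, Pola1 by 0.25 (95% interval -0.31 to 0.81) and Pold1 by 0.02 (95% interval -0.41 to 0.45).

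Pcna, the sliding clamp, had 10.43 and 10.58 in the controls and 10.99, 10.78 and 10.71 in I/R (0.33 ± 0.11, adjusted p = 0.319). A further probe set for Pcna gave 0.34 ± 0.11. The 5 subunits of the clamp loader had differences of 0.06 to 0.40, and none passed the unadjusted threshold. Rfc3 had 7.37 and 7.39 against 8.12, 7.59 and 7.63 (0.40 ± 0.20, adjusted p = 0.433), and Rfc5 had 9.185 and 9.204 against 9.77, 9.29 and 9.44 (0.30 ± 0.17, adjusted p = 0.466). In these subunits the I/R grafts were separate from the controls, with 2553 well above the others. Rfc4 was the most scattered, from 8.52 in graft 2555 to 9.68 in graft 2553, with the controls at 9.013 and 9.004 (0.14, 95% interval -0.95 to 1.24). Rfc1 and Rfc2 differed by 0.08 and 0.06.

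Fen1, the nuclease that removes the flaps of lagging-strand fragments, had 6.93 and 6.74 against 7.09, 7.16 and 7.01 (0.25 ± 0.08, adjusted p = 0.316). Lig1, the ligase that seals them, had 6.97 and 7.28 against 7.67, 7.33 and 7.30 (0.31 ± 0.17, adjusted p = 0.468), with I/R graft 2557 barely above control 2556. Both genes of lagging-strand completion thus had separate groups with a narrow gap.

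RPA, the complex that coats single-stranded DNA, had differences in both directions. Rpa1 and Rpa3 had lower means in I/R, by -0.10 and -0.15, and Rpa2 a higher one, by 0.11. Rpa3 had 7.75 and 7.87 in the controls and 8.19, 7.21 and 7.59 in I/R, with a 95% interval of its difference from -1.08 to 0.79. Rpa2 had 7.83 and 7.84 against 8.14, 7.86 and 7.86, with the last pair of grafts barely above the controls. All 3 subunits were nonetheless highest in graft 2553.

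In nucleotide supply, thymidylate synthase had the largest difference. Tyms, which makes the thymidylate used only for DNA, had 6.90 and 7.39 in the controls and 8.20, 7.96 and 7.79 in I/R (0.84 ± 0.21, adjusted p = 0.286). The ribonucleotide reductase subunits Rrm1 and Rrm2 were separate between groups as well, but mainly through 1 graft. Rrm2 had 7.02 and 6.95 against 8.30, 7.38 and 7.08 (0.60 ± 0.42, adjusted p = 0.496), and Rrm1 had 8.99 and 8.91 against 9.69, 9.03 and 9.09 (0.32 ± 0.24, adjusted p = 0.515). Tk1, thymidine kinase, and Dut, the dUTPase, differed by -0.02 and -0.03. For Tk1 the probe sets disagreed: the brighter one held 7.01 to 7.18 in all grafts, and the other had 6.36 and 6.45 in the controls and 7.15, 6.57 and 6.43 in I/R (0.31 ± 0.25, adjusted p = 0.538).

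Of the genes that drive or limit entry into S phase, Dtl had the largest difference of all 46. Dtl is the substrate receptor of the ubiquitin ligase that destroys Cdt1 on PCNA during S phase. It had 6.26 and 6.35 in the controls and 7.82, 7.34 and 6.999 in I/R (1.08 ± 0.28, 2.12-fold, adjusted p = 0.286). E2f1, the transcription factor, had 6.93 and 6.83 against 7.75, 7.28 and 7.17 (0.52 ± 0.21, adjusted p = 0.365), with all I/R grafts above the controls. The cyclins E differed from these in grafts 2555 and 2557. Ccne2 had 6.70 and 6.65 against 7.86, 6.70 and 6.48, and Ccne1 had 7.20 and 7.14 against 7.84, 7.38 and 7.10, so that in both genes 2557 lay below the controls.

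Uhrf1, which brings maintenance DNA methylation to the fork, had 6.93 and 7.14 against 7.87, 7.64 and 7.32 (0.58 ± 0.20, adjusted p = 0.327). The chromatin assembly factor subunits Chaf1a and Chaf1b, which place histones on new DNA, had differences of 0.26 ± 0.17 and 0.53 ± 0.29 with adjusted p-values of 0.479 and 0.467. In each of them graft 2557 was level with a control, at 7.06 and at 7.04.

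**Figure D3:**
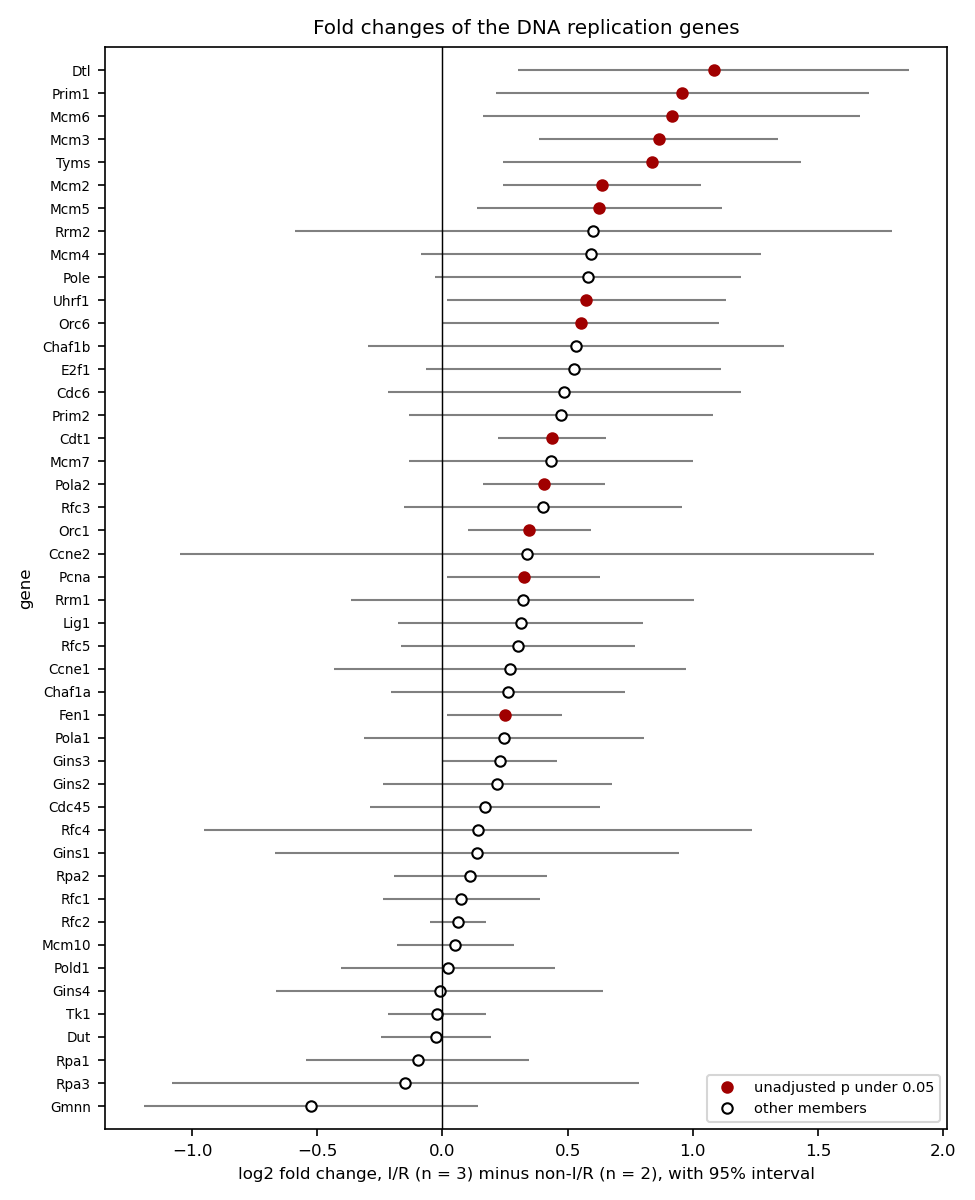
Log2 fold change of each member (I/R, n = 3, minus non-I/R, n = 2; horizontal axis) with its 95% interval from limma, ordered by size. Filled points are the 14 members at an unadjusted p under 0.05, from Fen1 at 0.25 to Dtl at 1.08, and open points are the others, 6 of them below 0.

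The members with E2F letters in their window had somewhat larger differences than those without. Of the 14 with the letters, 11 had every I/R graft above both controls, against 15.8% of all probe sets. The median log2 fold change of these 14 was 0.44. Of the 23 without the letters, 12 were separate in this way and the median was 0.27. This is a description of 37 genes that share the same grafts, and no test was made. Other replication factors and G1 to S genes held the letters about as often. The medians over all their measured genes were 0.20 and 0.08.

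The 3 I/R grafts were not alike. Graft 2553 had the highest value of the 5 grafts in 40 of 46 members (87.0%), against 13.3% of all probe sets. Over the members, it stood above the control mean by a median of 0.59, while the mean of grafts 2555 and 2557 stood above it by 0.21 and was higher in 35 of 46 members. The members thus fell along a range: Pola2 and Fen1 were as high in 2555 and 2557 as in 2553 (differences of 0.004 and 0.003 between 2553 and their mean), whereas Ccne2 and Rrm2 exceeded the other I/R grafts by 1.27 and 1.07 in 2553. Without 2553, the median log2 fold change was 0.21, and 35 members had a higher mean in I/R, against 44.8% of all probe sets. In that setting 12 members were higher at an unadjusted p under 0.05 by limma, where 6.53% of all probe sets were. The same controls enter both differences.

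Mitosis genes, which act after replication is complete, had a different distribution over the I/R grafts. Of 29 measured, all 29 were higher in 2553 than in either of the other I/R grafts, against 25.3% of all probe sets. In 27 of them 2553 was the highest of all 5 grafts, against 13.3%. Their median difference from the controls was 0.46 in 2553 and 0.00 for the mean of 2555 and 2557. In that mean 15 of 29 were higher than the controls, against 44.8% of all probe sets. Every I/R graft lay above both controls in 3 of the 29 (10.3%), against 15.8% of all probe sets. None was higher at an unadjusted p under 0.05, and 2 were lower, Cenpa and Cenpf. Over all probe sets 7.64% were higher and 7.35% lower, so the counts above both controls and lower were near the shares over the array. Cenpa, the centromeric histone, had 8.94 and 8.82 in the controls and 7.93, 7.54 and 7.86 in I/R (-1.102 ± 0.15, adjusted p = 0.282), and Cenpf, a kinetochore protein, differed by -0.57 ± 0.20. The smallest p-values after these belonged to Kif23 (0.33 ± 0.15) and Foxm1 (0.17 ± 0.10). Values were tied between arrays in 19 of the 29 (65.5%), against 28.3% of the members. Mean signals of the mitosis list were 5.94 to 6.55 over the grafts, below the array medians of 6.58 to 6.65. Those of the members were 7.37 to 8.01. The difference between the lists, and the part of low signal in it, was not tested.

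**Figure D4:**
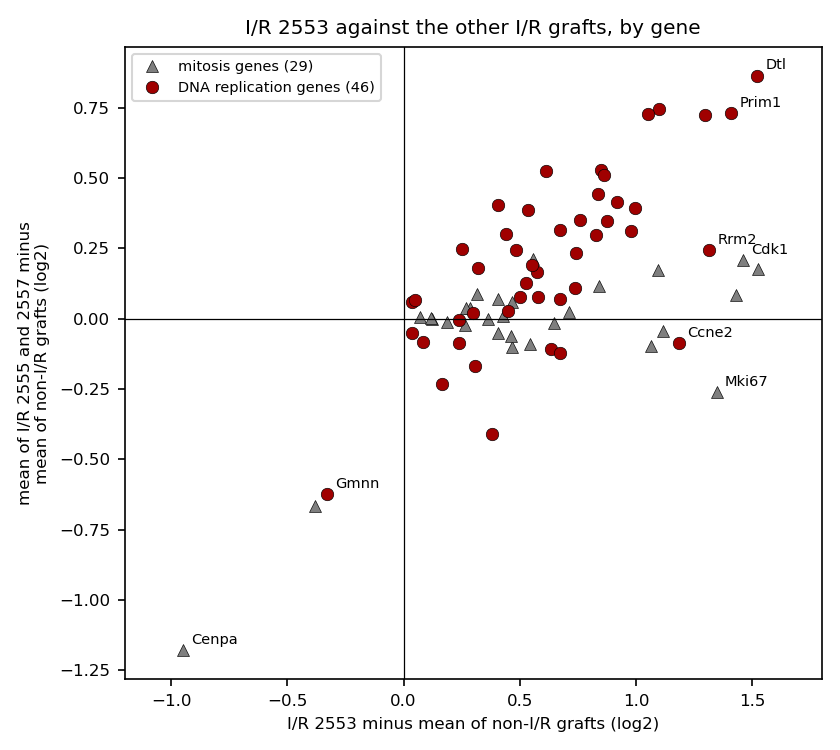
Each point is a gene, with the log2 difference of I/R graft 2553 from the mean of the non-I/R grafts on the horizontal axis and that of the mean of I/R grafts 2555 and 2557 on the vertical axis (the same 2 controls enter both axes). Circles are the 46 DNA replication genes, with medians of 0.59 and 0.21, and triangles the 29 mitosis genes, with medians of 0.46 and 0.00.

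Other replication factors and other nucleotide supply genes (median 0.15) had smaller median differences than the members, whereas replication checkpoint genes had the same (0.32). Over all probe sets, 45.6% had a higher mean in I/R, and 7.64% were higher and 7.35% lower at the unadjusted threshold. Of 37 other replication factors, 34 had a higher mean in I/R, 10 were higher and 1 was lower at the unadjusted threshold, and the median log2 fold change was 0.20. The smallest p-values were those of Cdc7, the kinase that fires licensed origins (0.42 ± 0.05, adjusted p = 0.282), Top1, a topoisomerase (-0.20 ± 0.03), Mcmbp, which binds MCM subunits (0.24 ± 0.04), and Dnmt1, the maintenance methyltransferase that works with Uhrf1 (0.59 ± 0.10). Cdc7 had 5.69 and 5.78 in the controls and 6.13, 6.20 and 6.12 in I/R, without an excess in 2553. All 11 measured replication checkpoint genes had a higher mean in I/R, with 4 at an unadjusted p under 0.05 (Rad9a, Brca2, Hus1 and Chek1) and a median of 0.32. Of 12 other nucleotide supply genes, 10 had a higher mean and 2 passed, Umps and Cad, which make pyrimidines from the start (0.49 ± 0.13 and 0.58 ± 0.17), followed by Dctd and Tk2 (0.80 ± 0.29 and 0.25 ± 0.11).

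The genes that control the step from G1 to S went both ways. Of 27 measured, 8 were higher and 3 were lower at the unadjusted threshold, against 7.64% and 7.35% of all probe sets. The count lower was near its share over the array, and the median log2 fold change of the list was 0.08. Higher were Tfdp1, a partner of the E2F factors (0.44 ± 0.04, adjusted p = 0.276), the kinases Cdk4 (0.28 ± 0.04) and Cdk6 (0.55 ± 0.10), and their cyclin Ccnd1 (0.95 ± 0.17). The others were E2f3 (0.47 ± 0.11), E2f4 (0.83 ± 0.29), Cdk2 (0.43 ± 0.15) and Cdc25a (0.49 ± 0.09). The 3 lower genes were Tfdp2, Rbl2 and Cdkn1c, at -0.94, -0.75 and -0.37. Tfdp2 is a further partner of the E2F factors, and Rbl2 and Cdkn1c restrain the cell cycle. No gene of these lists passed an adjusted p under 0.05.

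**Figure D5:**
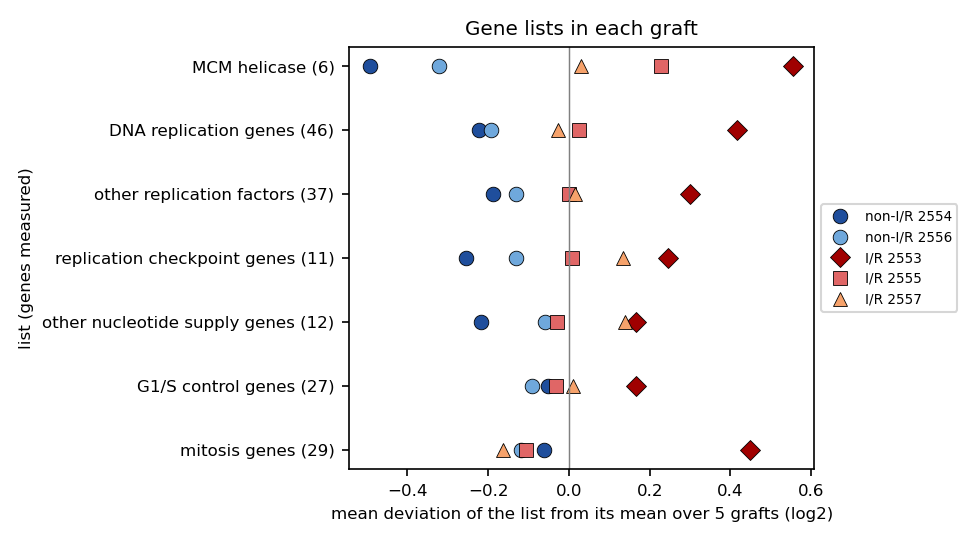
Mean deviation of each gene list in each graft from the mean of that list over the 5 grafts (log2, horizontal axis), with the number of genes measured in brackets. For the DNA replication genes the controls lay at -0.22 and -0.19 and the I/R grafts at 0.42 (2553), 0.02 (2555) and -0.03 (2557), and for the mitosis genes 2553 alone lay above 0, at 0.45.

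Markers of the cell types that a graft can hold also differed between the groups. Over all probe sets, 45.6% had a higher mean in I/R. By limma at an unadjusted p under 0.05, 7.64% were higher and 7.35% lower. Cardiomyocyte markers had lower means in I/R for 8 of 8 genes, 7 of them at an unadjusted p under 0.05, with mean signals of 13.18 and 13.00 in the controls and 12.28 to 12.59 in I/R. Neutrophil markers had higher means for 8 of 10, 5 of them at that threshold. Their mean signals were 7.99 and 8.29 in the controls and 8.57, 9.20 and 8.90 in I/R grafts 2553, 2555 and 2557. The granule genes Camp, Ltf and Elane, made by immature neutrophils, lay between 5.18 and 6.26 in every graft, while Ngp, a further granule gene, had 6.22 and 6.01 in the controls and 6.48, 6.96 and 7.29 in I/R. Macrophage and monocyte markers had mean signals of 10.26 and 9.74 in the controls and 10.20, 9.99 and 9.67 in I/R. In 2553, 9 of 10 were higher than in the other I/R grafts, as were 5 of 7 fibroblast markers. Over all probe sets this share was 25.3%, and in the other marker lists it was 0% to 42.9%. The macrophage and monocyte list had 5 higher and 5 lower means in I/R and a median log2 fold change of -0.004, from -0.61 for Mrc1 to 0.72 for Ccr2. The 1 gene of it at the unadjusted threshold was Ccr2, the chemokine receptor of recruited monocytes (SE 0.20, adjusted p = 0.290).

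Fibroblast markers ran from 9.65 to 10.05, endothelial markers from 10.06 to 10.25, T cell markers from 5.87 to 5.96, B cell markers from 5.38 to 5.68 and erythroid markers from 6.56 to 6.83 in mean signal over the grafts. Atrial markers ranged widely, from 7.20 in control 2556 to 9.99 in control 2554, the widest spread of any marker list, and it lay within the controls. Without grafts 2554 and 2555, which had the highest atrial signals, 4 members were higher at the unadjusted threshold (Gins3, Orc1, Orc6 and Rfc2), near the 6.63% of all probe sets that were, and the median over the members was 0.38. The part of these markers in the replication genes' differences was not tested.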

How the data were processed

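The authors deposited log2 values made by RMA for 35556 probe sets in 5 arrays, and Partek and RMA are the tools named, with no version, in the submitters' notes on processing. The genome build of the array annotation is not given in the sources used here. Because RMA brings arrays to a common distribution, a shift of most genes at once would not be seen. The log2 values were used as deposited, with no filter. Gene names came from the annotation of the platform, and their symbols from a RefSeq table (GRCm38.p6) in which 99.6% of the gene IDs were found: 21789 had 1 symbol, 1621 several and 12146 were not listed. Where a gene had more than 1 probe set (999 genes), the brightest over all arrays stood for it.

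I/R was compared with non-I/R with lmFit and eBayes of limma (version 3.58.1, R 4.3.3; prior df 0.824) over all 21789 probe sets, with Benjamini-Hochberg adjustment, and the fit was tested on simulated data. Intervals are 95% and errors are SE. Thresholds were an unadjusted or adjusted p of 0.05 and, for 1 count, 2-fold. The members, gene lists and markers were chosen with earlier results of these data known, so no count over a list is independent support. Values are given per graft for members at an unadjusted p under 0.05, members whose groups did not overlap, and the member of each role with the largest difference. In other lists the 4 members with the smallest p are named. Further genes named among the G1 to S genes and the cell type markers were chosen after their values were seen. The arrays give no count, so their number limits the precision. Alternatives were a plain t-test (the methods' ANOVA for 2 groups gives the same), other eBayes settings, array weights, other normalizations, filters, and leaving out grafts. Python 3.11.15 with matplotlib 3.10.9 made the figures.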

Additional observations from a re-analysis of the deposited data

How the results depend on the processing

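The median log2 fold change of the 46 members lay between 0.21 and 0.40 over 17 alternative settings, and 0 members passed an adjusted p under 0.05 in any of them. The number higher at an unadjusted p under 0.05, 14 as reported, was 9 with the methods' t-test and 4 without grafts 2554 and 2555 (the grafts with the highest atrial marker signals), and 3 to 12 when 1 graft was left out. The number lower, 0 as reported, was 1 over probe sets with no tied values (Gmnn) and 0 to 1 with 1 graft left out (Rpa1 without 2553, Gmnn without 2556). The count of members with every I/R graft above both controls, 27, cannot fall when grafts are left out, so those settings, added after seeing the data, say nothing about its stability: it was 27 to 34 with 1 graft left out, where 17.6% to 25.5% of all probe sets were separate in this way, and 35 without 2554 and 2555, where 29.2% were. Beside the counts of members higher at an unadjusted p under 0.05, the shares of all probe sets were 7.64% as reported and 4.72% with the methods' t-test. With 1 I/R graft left out these shares were 4.7% to 6.53%. No paired analysis was possible because the labels give no replicate numbers.

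Of 753 pairs of gene and setting, 648 kept their direction and side of the unadjusted threshold, 62 lost and 25 gained it, and 18 turned sign, in 10 genes whose differences were small or rested on 1 graft. With array weights, Gins4 was 0.018 and Pold1 -0.083. Averaged over its probe sets, Tk1 was 0.14. Without 2554 and 2555, Dut was 0.055, Gins4 0.22, Mcm10 -0.022 and Rpa3 0.017. With 1 graft left out, Ccne2 ran from -0.086 to 0.61, Gins1 from -0.11 to 0.29, Pold1 from -0.086 to 0.14, Rfc1 from -0.005 to 0.15, Rfc4 from -0.12 to 0.46, Gins4 from -0.17 to 0.17, Dut from -0.083 to 0.028, Mcm10 from -0.013 to 0.11, Rpa3 from -0.41 to 0.080 and Tk1 from -0.050 to 0.037. The causes were not tested.

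With median-centred, quantile or loess normalized arrays, 40 members had a higher mean in I/R, as reported. Array signal gives no absolute level, and the files used hold no probe intensities, so tied values and brightness over background could not be followed further.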
